A study of Mus musculus with 35 samples.

Results

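Translation efficiency, the amount of ribosome footprints on an mRNA relative to the amount of that mRNA, was compared between leukemia cells with and without Ogfod1 in mice that received vehicle. The comparison covered 12 of the 35 libraries of the series, namely the footprint and RNA libraries of 6 mice in which the labels give both assays the same library number. The sgOgfod1 group held 3 mice (replicates 3, 4 and 5), whose cells carried a guide against Ogfod1, which the study's design calls a knockout. The sgScramble group held 3 mice (replicates 2, 3 and 5) with a scrambled guide. In both groups the cells were MLL-AF9 acute myeloid leukemia cells marked with GFP, male recipients were injected intravenously at 8 to 10 weeks of age, the diet held standard amino acids (AA), and the vehicle was PBS given into the peritoneum. Cells were sorted as GFP-positive from marrow, and 2 µl of each 20 µl lysate went to Smart-seq2 RNA libraries. Whether the edited cells were 1 clone or a pool is not given in the sources used here. The 6 treated mice with both assays, 2 with sgOgfod1 and 4 with sgScramble, ate a diet free of branched-chain amino acids (BCAA) and were given 100 mg/kg cytarabine on 5 days, with 3 mg/kg doxorubicin on the first 3, and entered the fit to share the estimate of spread. Of 21974 protein-coding genes counted, 11099 passed the filter on low counts in both assays and were tested.

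Ogfod1 is an oxygenase that hydroxylates 1 proline of Rps23 (uS12), a protein of the small ribosomal subunit that lies at the decoding centre, where codon and anticodon pair. A ribosome footprint is the stretch of mRNA that a ribosome shields from nuclease, so footprints count ribosomes on coding sequence, and their number per mRNA depends on how often ribosomes start on it and how slowly they move along it. Long mRNAs, mRNAs with structured leaders such as those of ferritin, and mRNAs with unusual codon runs are classes whose translation is known to be set apart from the average.

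The hydroxylated residue is the reason for showing the following stretch of the Rps23 coding sequence (ENSMUSG00000049517, GRCm38 chromosome 13, 90922958 to 90924950, plus strand). The capitals mark codon 62, a proline codon, with 9 codons on each side.
Rps23 codon 62: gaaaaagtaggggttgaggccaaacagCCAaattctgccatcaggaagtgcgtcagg

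Total counts of the sgOgfod1 mice were 7.78, 5.71 and 14.6 M (mega) in footprints and 42.9, 37.7 and 46.9 M in RNA, against 9.47, 7.90 and 9.11 M in footprints and 56.4, 49.2 and 58.9 M in RNA of the sgScramble mice. Pseudogenes took 26.2 to 27.3% of footprint counts in sgOgfod1 and 24.8 to 25.6% in sgScramble mice, but under 1% of RNA counts. The RNA library of sgScramble replicate 3 stood apart with 19263 coding genes detected, against 14946 to 16184 in sgOgfod1 mice and 15509 and 17166 in the other sgScramble mice with both assays. The 16 markers of MLL-AF9 leukemia and myeloid progenitors were all tested and summed to 4392 to 6318 RNA CPM, counts scaled to a fixed library total, in sgOgfod1 and 5945 to 6276 CPM in sgScramble mice. Some markers of other cells differed between or within the groups, and the genes named here for it were chosen after their values were seen. The summed footprints of 30 neutrophil genes were 17923 to 26994 CPM in sgOgfod1 and 31200 to 34104 CPM in sgScramble mice, while their RNA sums overlapped, at 15843 to 25884 CPM in sgOgfod1 and 23311 to 24737 CPM in sgScramble mice. Members of that list went both ways: Mpo, the peroxidase of early granules, had 1779, 986 and 1110 footprint CPM in sgOgfod1 mice, against 614, 861 and 494 CPM in sgScramble mice. The 12 tested tissue macrophage markers had median log2 changes of 1.07 in footprints and 0.72 in RNA, with 1 called in each, and Mrc1 had 5.88, 6.26 and 4.79 RNA CPM in sgOgfod1 mice, against 0.700, 1.28 and 2.34 CPM in sgScramble mice. The whole macrophage list summed to 793 to 1082 RNA CPM in sgOgfod1 and 995 to 1360 CPM in sgScramble mice. Most of that sum was Vcam1, Adgre1 and Slc40a1, at 443, 302 and 275 CPM in sgOgfod1 replicate 3. RNA of Cd5l, Mrc1, C1qa, C1qb, C1qc and Axl was higher in every sgOgfod1 mouse than in any sgScramble mouse. That of Adgre1 was lower in every sgOgfod1 mouse, and the other members overlapped. Replicate 4 of sgOgfod1 stood apart in basophil, mast cell and eosinophil markers, which summed to 1285 RNA CPM there, against 185 CPM in the lowest sgOgfod1 mouse and 532 to 704 CPM in sgScramble mice. In it Cpa3, a mast cell protease, had 632 RNA CPM, against 9.38 and 35.9 CPM in the other sgOgfod1 mice and 19.3 to 29.3 CPM in sgScramble mice. Without that mouse 50 genes were called in translation efficiency, against 115 with it. Leaving out sgOgfod1 replicate 3 or 1 sgScramble mouse instead left 28 to 67 calls, and leaving out sgOgfod1 replicate 5 gave 401. The part of the markers of other cells in the results below was not tested.

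Ogfod1 itself (ENSMUSG00000033009, chromosome 8, 94037198 to 94067921, plus strand, GRCm38) had 4.76, 5.40 and 3.08 footprint CPM in the sgOgfod1 mice, against 24.9, 26.4 and 28.5 CPM in the sgScramble mice. Its RNA was 12.3, 9.06 and 12.3 CPM in sgOgfod1 mice, against 24.9, 22.2 and 24.1 CPM in sgScramble mice. No sgOgfod1 mouse overlapped a sgScramble mouse in either assay. Footprints per RNA were 0.388, 0.596 and 0.250 in sgOgfod1 mice, against 0.997, 1.19 and 1.18 in sgScramble mice. The log2 change of translation efficiency was -1.63 ± 0.28 (SE, edgeR quasi-likelihood, adjusted p = 0.00367), with footprints at -2.68 ± 0.23 and RNA at -1.08 ± 0.19, and leaving out any 1 mouse gave -1.88 to -1.26 with adjusted p up to 0.0319. The share of cells that were edited is not given in the sources used here. Rps23, the protein that Ogfod1 modifies, had footprint-to-RNA ratios of 4.98, 3.45 and 5.14 in sgOgfod1 mice, against 3.40, 4.69 and 5.14 in sgScramble mice. The Rps23 ratios overlapped, and the log2 change was 0.04 ± 0.18 (edgeR adjusted p = 0.95).

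Across all genes, few mRNAs were called as different in translation efficiency between sgOgfod1 and sgScramble cells, and those called higher were mostly very long. By edgeR's quasi-likelihood test with Benjamini-Hochberg adjustment, 115 of 11099 genes were called at an adjusted p under 0.05 (1.04%), of which 83 were higher (0.748%) and 32 lower (0.288%) in sgOgfod1 cells. Footprints alone gave 268 calls (2.41%; 1.36% higher, 1.05% lower) and RNA alone 42 (0.378%; 0.225% higher, 0.153% lower) in the same mice. Ratios of the sgOgfod1 mice lay wholly above those of the sgScramble mice in 10.3% of genes and wholly below in 9.47%. The calls for higher efficiency had a median log2 change of 0.71, and 48 of the 82 with a coding length ran over 2000 codons, a length that 2.92% of all genes tested exceeded. The calls for lower efficiency had a median of -0.64 and were short, with 20 of 31 under 300 codons, against 26.8% of all genes tested. Of the 83 higher genes, 76 also had more footprints and 32 of these were called in footprints, while RNA was lower in 74 and called lower in 6. The footprint change was the larger part in 59 of the 83. The number of calls rested strongly on single mice: it was 28 to 67 when 1 of the mice other than sgOgfod1 replicate 5 was left out (37 without sgScramble replicate 3) and 401 without sgOgfod1 replicate 5, and a limma fit of the 6 vehicle and 6 treated per-mouse ratios called only Capn12, Cep350, Syne2 and Snn. All 115 kept their sign in each of these 7 fits. That could hardly be otherwise, since the ratios of all 83 higher and all 32 lower genes did not overlap between the groups.

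**Figure D1:**
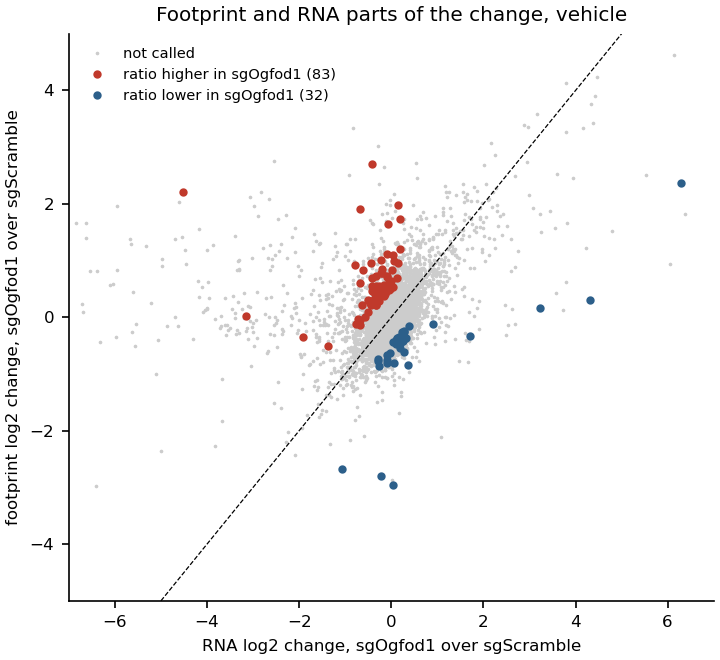
Footprint log2 change (vertical axis) against RNA log2 change (horizontal axis) of sgOgfod1 over sgScramble under vehicle for each gene tested, with the 83 genes of higher and the 32 of lower translation efficiency in colour and a dashed line where both changes are equal. Genes with higher efficiency lie above the line, mostly through more footprints, and a few of the lower ones lie far to the right, with more RNA at similar footprints; 5 uncalled genes lie outside the axes.

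Giant proteins of the cytoskeleton, nucleus and membranes held the most calls of any list. Of 49 listed, a list drawn up for size with earlier results of these data known, 24 had higher and 0 lower translation efficiency, all 49 had a positive change, 36 had ratios that did not overlap between the groups, and the median log2 change was 0.67 against 0.00 over all genes tested. Over all genes tested, 0.748% were called higher, 50.4% had a positive change and 10.3% had ratios wholly above. All 322 tested genes over 2000 codons, taken by length alone, had 48 called higher (14.9%), 87.9% positive and a median of 0.39. The 49 listed genes had a median of 0.45 in footprints, with 15 called higher, and of -0.19 in RNA, with 2 called lower. Summed footprints of the list were 10990, 11441 and 9867 CPM in sgOgfod1 mice, against 9081, 8852 and 8702 CPM in sgScramble mice. Every sgOgfod1 mouse lay above every sgScramble mouse in this sum.

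Macf1, which links actin to microtubules, had 78.3, 124 and 84.5 footprint CPM in sgOgfod1 mice, against 46.1, 46.6 and 48.7 CPM in sgScramble mice. Its RNA was 55.4, 73.1 and 64.3 CPM in sgOgfod1 mice, against 72.2, 78.5 and 74.3 CPM in sgScramble mice. The 2 groups did not overlap in footprints, whereas RNA met at 73.1 CPM in sgOgfod1 replicate 4 and 72.2 CPM in sgScramble replicate 2. Translation efficiency of Macf1 rose by a log2 of 1.22 ± 0.16 (edgeR adjusted p = 0.000297), with footprints at 1.01 ± 0.16 (adjusted p = 0.00347) and RNA at -0.22 ± 0.14 (adjusted p = 0.591). Cep350, a large centrosomal protein, had ratios of 0.698, 0.848 and 0.675 in sgOgfod1 mice, against 0.360, 0.342 and 0.325 in sgScramble mice. The spread within each group was small beside the gap, and Cep350 was called in each alternative fit, at a log2 change of 1.10 ± 0.13 (edgeR adjusted p = 0.000135).

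Other members tie membranes and organelles to the cytoskeleton. Syne2, which joins the nuclear envelope to actin, had ratios of 1.34, 1.37 and 1.11 in sgOgfod1 mice, against 0.549, 0.347 and 0.355 in sgScramble mice. The log2 change of Syne2 was 1.60 ± 0.22 (edgeR adjusted p = 0.000342). Utrn, the utrophin that anchors actin at the membrane, had 30.7, 39.3 and 25.7 footprint CPM in sgOgfod1 mice, against 23.8, 22.3 and 15.6 CPM in sgScramble mice. Utrn RNA was lower in sgOgfod1 mice, at 26.5, 28 and 27.2 CPM, against 46.2, 39.8 and 44.1 CPM in sgScramble mice. Utrn RNA did not overlap between the groups, nor did its footprints. The log2 change was 1.28 ± 0.18 in efficiency (edgeR adjusted p = 0.000663) and -0.67 ± 0.12 in RNA (adjusted p = 0.0242), while footprints at 0.61 ± 0.19 did not pass (adjusted p = 0.0885). Akap9, a scaffold of the Golgi and centrosome, changed by 0.83 ± 0.13 (edgeR adjusted p = 0.00137).

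In 2 of these genes 1 sgOgfod1 mouse carried the widest gap. Sptbn1, a spectrin of the membrane skeleton, had ratios of 0.295, 0.591 and 0.297 in sgOgfod1 mice, against 0.126, 0.127 and 0.112 in sgScramble mice. Plec, which ties intermediate filaments to other structures, had 1.94, 3.34 and 1.64 in sgOgfod1 mice, against 0.939, 0.769 and 0.895 in sgScramble mice. In both the highest value was sgOgfod1 replicate 4, and the groups did not overlap. The log2 changes were 1.62 ± 0.28 for Sptbn1 and 1.34 ± 0.23 for Plec (edgeR adjusted p = 0.0289 and 0.0138). These calls were lost without sgScramble replicate 3 or 5, and for Sptbn1 also without sgScramble replicate 2, with adjusted p up to 0.135 for Sptbn1 and 0.0709 for Plec.

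**Figure D2:**
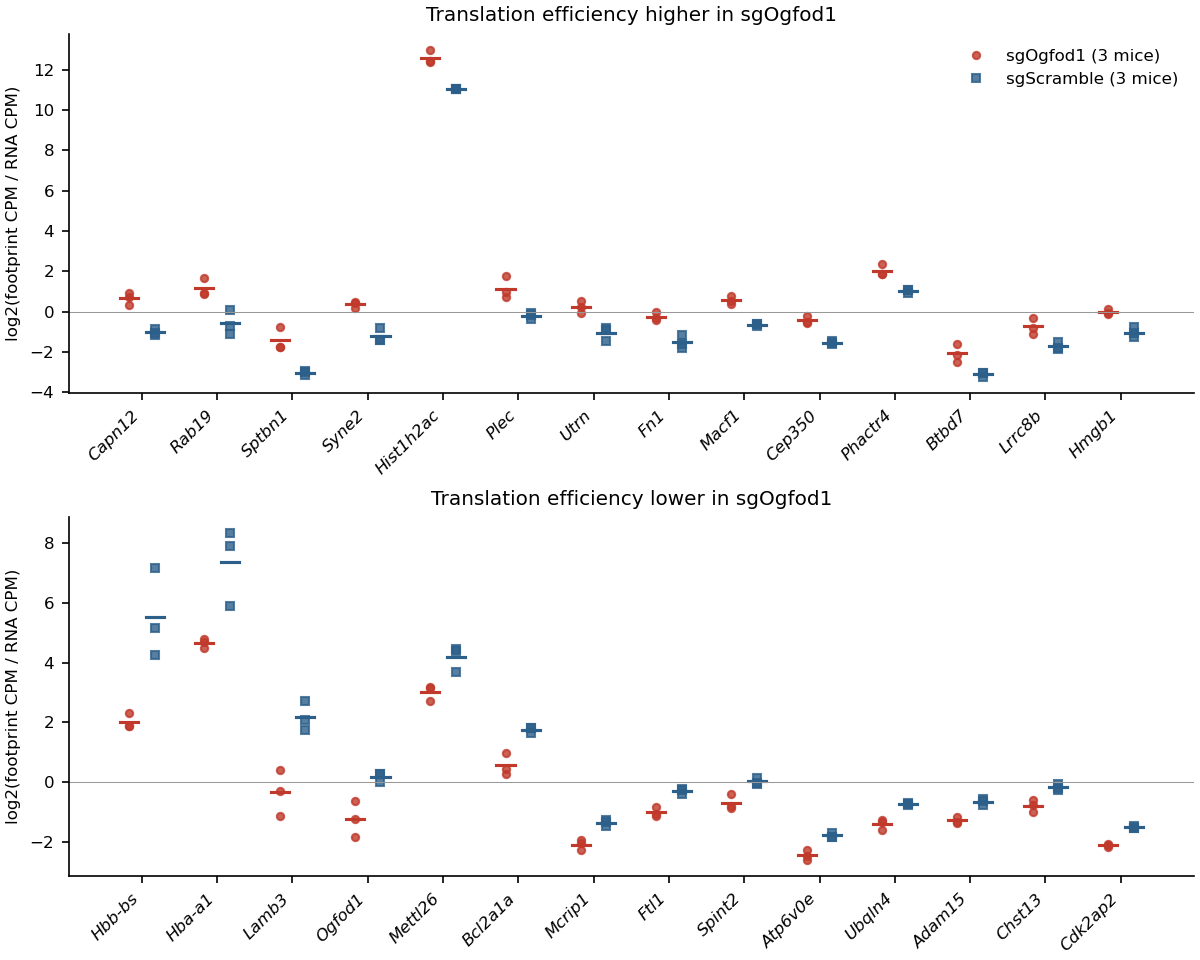
The log2 ratio of footprint CPM to RNA CPM in each vehicle mouse for 14 of the 15 genes named for the largest rise (top) and 14 of the 15 named for the largest fall (bottom) in sgOgfod1 cells; circles are the 3 sgOgfod1 mice, squares the 3 sgScramble mice and bars the group means. The groups do not overlap in any of these genes because the choice of genes required it, Hist1h2ac stands far above the rest, and the ratios include a prior count of 2.

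Among the named genes that rose and are not in the giant list, Capn12, a calpain protease of the skin, had 13.4, 11.7 and 7.42 footprint CPM in sgOgfod1 mice, against 3.06, 2.50 and 2.35 CPM in sgScramble mice. Its RNA, at 8.39, 6.26 and 6.24 CPM in sgOgfod1 and 7.74, 6.08 and 5.01 CPM in sgScramble mice, overlapped between groups. The log2 change of efficiency of Capn12 was 1.84 ± 0.32 (edgeR adjusted p = 0.00367). Fn1, the matrix protein fibronectin, had ratios of 0.741, 0.968 and 0.807 in sgOgfod1 mice, against 0.451, 0.326 and 0.286 in sgScramble mice, and changed by 1.24 ± 0.16 (edgeR adjusted p = 0.000331). Fn1 levels varied widely within sgOgfod1 mice in both assays together, with RNA at 215, 74.4 and 155 CPM and footprints at 159, 72.0 and 125 CPM, so the ratio separated the groups while RNA did not. Rab19, a small GTPase, rose by 1.72 ± 0.39, Phactr4, a regulator of protein phosphatase, by 1.04 ± 0.23, Btbd7 by 1.04 ± 0.23 and Lrrc8b, a subunit of volume-regulated anion channels, by 1.04 ± 0.24 (edgeR adjusted p = 0.0301, 0.0341, 0.0259 and 0.0366). Each of those 4 calls was kept in only 1 or 2 of the 6 fits that left out 1 mouse, with adjusted p up to 0.184, 0.155, 0.19 and 0.214. Hist1h2ac, a histone of the replication-dependent kind, whose mRNA lacks a poly(A) tail, had only 0.595, 0.309 and 0.490 RNA CPM in sgOgfod1 mice, against 1.60, 2.13 and 1.55 CPM in sgScramble mice, and 3336, 2782 and 2929 footprint CPM against 3474, 4610 and 3368 CPM. Its called ratio change of 1.56 ± 0.33 (edgeR adjusted p = 0.0171) came with an RNA change of -1.91 ± 0.54 and a footprint change of -0.34 ± 0.12, neither of which passed alone (adjusted p = 0.183 and 0.138), and histone paralogs may share its reads.

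The link with length ran through the whole range of genes. In the longest of 10 equal classes of coding length, 1181 codons and more, the median log2 change of translation efficiency was 0.25 and 59 of 1102 genes were called higher and 0 lower. In the shortest class, up to 174 codons, the median was -0.12, with 2 genes higher and 11 lower. Over the 10 length classes the efficiency medians followed the footprint medians, from -0.13 to 0.19, while RNA medians lay between -0.08 and 0.02. Spearman's rho between the change and coding length over 11020 genes was 0.301 for efficiency, 0.277 for footprints and -0.0502 for RNA, a description across genes that share their libraries. By mouse, the median deviation of the longest class from the 6-mouse mean of each gene was 0.14, 0.21 and 0.02 in sgOgfod1 mice, against -0.02, -0.16 and -0.18 in sgScramble mice. In this class the groups did not overlap, but the extremes were 4 mice, and sgOgfod1 replicate 5 and sgScramble replicate 2 lay next to each other near 0. Over all lengths the groups overlapped. There the rho of coding length with the deviation of the ratio was 0.163, 0.34 and -0.0656 in sgOgfod1 mice, against 0.00573, -0.272 and -0.297 in sgScramble mice. The difference by length was thus a graded one between mice. The cause of this difference between mice of 1 group was not tested.

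**Figure D3:**
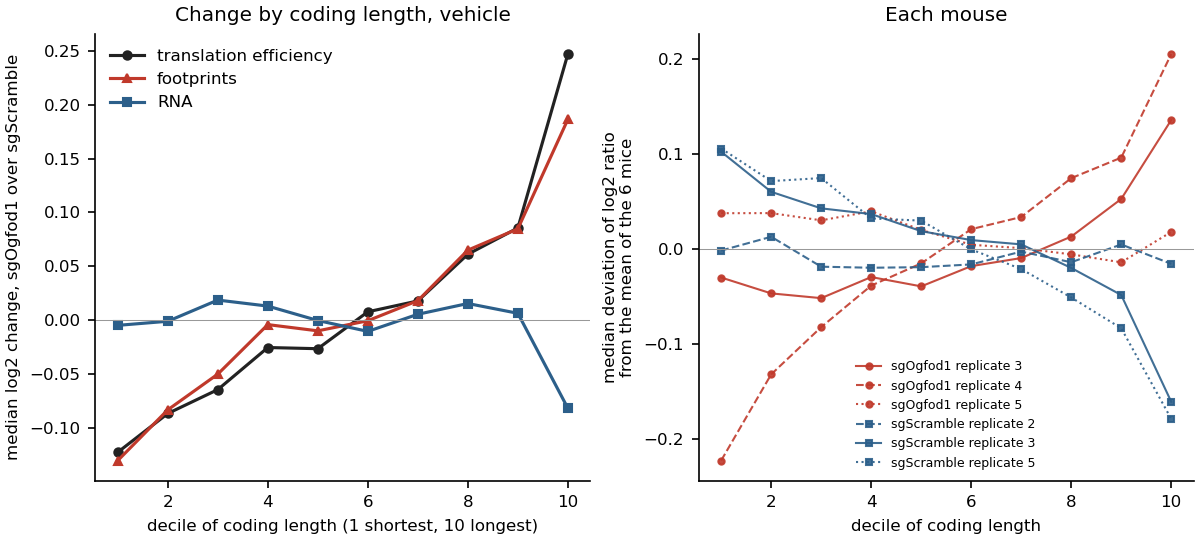
Left, median log2 change of sgOgfod1 over sgScramble in translation efficiency, footprints and RNA for 10 classes of rising coding length. Right, for each of the 6 vehicle mice, the median deviation of the log2 footprint-to-RNA ratio from the 6-mouse mean; efficiency and footprints climb with length while RNA stays near 0 except in the longest class (-0.08), and sgOgfod1 replicates 3 and 4 and sgScramble replicates 3 and 5 show the slope most.

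A group of short, abundant nuclear proteins went against the length pattern. The list held 12 tested genes of the Hmgb, Hmgn, Anp32, Set and Ptma families, which bind nucleosomes or act as histone chaperones. Of these, 3 were called higher and 0 lower in translation efficiency, 6 were called higher in footprints, and none was called in RNA. Over all genes tested, 0.748% were called higher in efficiency and 1.36% in footprints. Hmgb1, an architectural DNA-binding protein (ENSMUSG00000066551, chromosome 5, 149046702 to 149184489, minus strand, 215 codons), had 437, 421 and 340 footprint CPM in sgOgfod1 mice, against 153, 195 and 173 CPM in sgScramble mice. Its RNA, at 394, 457 and 362 CPM in sgOgfod1 and 369, 336 and 362 CPM in sgScramble mice, met at 362 CPM. The Hmgb1 ratio changed by a log2 of 1.02 ± 0.15 (edgeR adjusted p = 0.000706), with footprints at 1.20 ± 0.14 (adjusted p = 0.000293) and RNA at 0.18 ± 0.11 (adjusted p = 0.545). Footprints are short, and 10 genes named as Hmgb1 pseudogenes held 21308 footprint counts in these 6 mice against 8993 on Hmgb1 itself, but only 1487 RNA counts against 109572. With the counts of those copies added, the ratios were 3.59, 3.10 and 3.11 in sgOgfod1 mice, against 1.41, 1.92 and 1.65 in sgScramble mice, a mean log2 difference of 0.985, against 1.02 for Hmgb1 alone. Anp32b has 1 such copy, with 10635 footprint counts beside 27375. Anp32a has none under its name, and copies under other names were not searched. It held 15739 footprint counts against only 5254 RNA counts in these 6 mice, and the part of reads from other loci was not tested.

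Anp32a, an inhibitor of protein phosphatase that also chaperones histones, had 710, 584 and 499 footprint CPM in sgOgfod1 mice, against 414, 408 and 401 CPM in sgScramble mice. Its RNA was 16.4, 17.2 and 12.4 CPM in sgOgfod1 mice, against 21.6, 19.5 and 19.9 CPM in sgScramble mice. Neither assay overlapped between the groups, and the Anp32a ratio rose by 0.96 ± 0.14 (edgeR adjusted p = 0.000772), although neither footprints (0.55 ± 0.15, adjusted p = 0.0601) nor RNA (-0.41 ± 0.16, adjusted p = 0.368) passed alone. Anp32b, its close relative, had 1261, 887 and 1002 footprint CPM in sgOgfod1 mice, against 645, 650 and 659 CPM in sgScramble mice, and rose by 0.54 ± 0.13 in efficiency (edgeR adjusted p = 0.0383), a call lost on leaving out any of 4 mice (sgOgfod1 replicate 3 or sgScramble replicates 2, 3 or 5, adjusted p up to 0.236). The relatives Anp32e and Set had log2 values of 0.56 and 0.39 that did not pass (edgeR adjusted p = 0.0729 and 0.1). Hmgb2, singled out after its values were seen, had ratios of 2.48, 2.32 and 2.43 in sgOgfod1 mice, against 2.19, 2.44 and 2.27 in sgScramble mice. Hmgb2 thus overlapped, with a log2 change of 0.07 ± 0.12 (edgeR adjusted p = 0.854).

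These proteins share long runs of acidic residues, which the listing did not use, and the runs are shown for the 3 genes that rose and for Hmgb2, which did not pass. The capitals mark the longest unbroken run of codons for aspartate or glutamate (acidic codons), with up to 4 codons on each side, from the GENCODE M21 transcripts of GRCm38.
Hmgb1, chromosome 5: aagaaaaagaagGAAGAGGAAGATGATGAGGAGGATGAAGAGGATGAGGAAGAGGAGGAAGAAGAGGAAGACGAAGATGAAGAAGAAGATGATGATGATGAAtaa
Anp32a, chromosome 9: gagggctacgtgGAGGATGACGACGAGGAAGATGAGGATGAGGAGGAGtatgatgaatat
Anp32b, chromosome 4: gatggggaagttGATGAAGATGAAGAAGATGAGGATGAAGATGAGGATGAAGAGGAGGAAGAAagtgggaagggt
Hmgb2, chromosome 8: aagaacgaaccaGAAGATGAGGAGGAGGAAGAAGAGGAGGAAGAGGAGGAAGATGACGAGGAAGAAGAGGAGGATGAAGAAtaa

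The run is 30 codons long in Hmgb1, 12 in Anp32a, 17 in Anp32b and 23 in Hmgb2, so its length did not order the changes. Over all genes with a complete coding sequence, 217 held a run of 10 or more acidic codons, and their median log2 change was 0.14 in efficiency, 0.22 in footprints and 0.00 in RNA, with 11 called higher (5.07%) and 0 lower. The 9482 genes whose longest run was 4 codons or fewer had medians of -0.01 in efficiency and -0.01 in footprints, with 46 called higher (0.485%). Long genes hold longer runs, with a median of 751 codons in the first class and 437 in the second. Among genes under 1000 codons, the 136 with a run of 10 or more had a median of 0.11 in efficiency and 0.21 in footprints, and the 9204 without one had -0.03 and -0.02. Under treatment the 217 genes had an efficiency median of 0.16, while Hmgb1 and Anp32a were at -0.29 and -0.16. Of the acidic codons, the share of GAA and GAT had a positive Spearman's rho with the vehicle change of efficiency over all genes (0.356 and 0.284). That of GAG and GAC had a negative one (-0.0838 and -0.105), and the part of the third base in the run classes was not tested. Runs of this kind were looked at after the values of Hmgb1 and Anp32a had been seen.

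Of the translation machinery, 2 initiation factors of 48 were called higher and none lower, against 0.748% and 0.288% of all genes tested. The called genes Eif5b, Eif3a and Ascc3 have 1216, 1344 and 2198 codons. They lie in the longest of the 10 length classes, where 5.35% of genes were called higher, and the part of length in these calls was not tested. Eif5b, the GTPase that joins the ribosomal subunits, had ratios of 2.19, 2.22 and 1.59 in sgOgfod1 mice, against 1.20, 1.17 and 1.02 in sgScramble mice. The groups of Eif5b did not overlap, and efficiency rose by 0.81 ± 0.13 (edgeR adjusted p = 0.0019) with footprints at 0.55 ± 0.11 (adjusted p = 0.014). Eif3a, the largest subunit of the factor that recruits mRNA to the small subunit, rose by 0.50 ± 0.12 (edgeR adjusted p = 0.0366), but that call held only without sgOgfod1 replicate 5 among the 6 fits that left out 1 mouse, with adjusted p up to 0.22 in the other 5. Ascc3, a helicase that takes apart collided ribosomes, was the one call among 31 elongation, termination and rescue factors, at 0.66 ± 0.14 (edgeR adjusted p = 0.0234), and was lost without sgOgfod1 replicate 3 or 4 or sgScramble replicate 3 or 5 (adjusted p up to 0.155). Of 82 cytosolic ribosomal proteins none was called in efficiency, footprints or RNA, and their median log2 change of efficiency was -0.06, a value near 0 whose sign turned without sgOgfod1 replicate 4 (0.08) or sgScramble replicate 5 (0.06) and with a block on the replicate number (0.02). Of these, Rpl21 was at 0.54 and Rpl5 at 0.37 without passing (edgeR adjusted p = 0.097 and 0.147). None of 18 mRNAs known for regulation by upstream open reading frames and none of 36 targets of ATF4, the transcription factor of the amino-acid response, was called, with medians of 0.04 and -0.01, and Atf5 was at -1.06 (edgeR adjusted p = 0.262).

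Proliferation and leukemia genes gave 1 call each. The genes called, Mki67 and Kmt2a, have 3177 and 3966 codons. Among all genes over 2000 codons 14.9% were called higher, against 0.748% of all genes tested. Mki67, the coat protein of mitotic chromosomes, had ratios of 3.38, 3.87 and 3.07 in sgOgfod1 mice, against 2.11, 2.04 and 1.86 in sgScramble mice, and rose by 0.78 ± 0.13 (edgeR adjusted p = 0.0019) as the one call among 52 mitosis genes, whose median was 0.09. Kmt2a, the histone methyltransferase whose gene is the MLL part of the fusion, rose by 0.63 ± 0.15 (edgeR adjusted p = 0.0394), called in 1 of the 6 fits that left out a mouse (adjusted p up to 0.176). Counts per gene do not tell Kmt2a from reads of the fusion transcript. None of 28 myeloid transcription factors was called. Only 5 of them had a positive change, against 50.4% of all genes tested, and their median was -0.21. In footprints 4 of them were called lower, against 1.05% of all genes tested. Of the 28, Cebpd was at -0.56 and Cebpe at -0.48 in efficiency (edgeR adjusted p = 0.0793 and 0.107).

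Among the genes with lower translation efficiency, Ftl1, the light chain of the iron store ferritin (ENSMUSG00000050708, chromosome 7, 45457944 to 45459884, minus strand), had 335, 300 and 305 footprint CPM in sgOgfod1 mice, against 542, 590 and 518 CPM in sgScramble mice. Its RNA was 600, 628 and 668 CPM in sgOgfod1 mice, against 643, 713 and 678 CPM in sgScramble mice. Footprints did not overlap while RNA did, and Ftl1 fell by a log2 of 0.71 ± 0.14 in efficiency, called at an edgeR adjusted p of 0.00958. Leaving out sgOgfod1 replicate 4 or sgScramble replicate 2 or 3 put that p just past the threshold, at most at 0.0562. The 2 genes named as Ftl1 pseudogenes held 19540 footprint counts beside 13470 on Ftl1. With them added the ratios were 1.32, 1.18 and 1.12 in sgOgfod1 mice, against 2.08, 2.01 and 1.88 in sgScramble mice, a mean log2 difference of -0.73. Fth1, the heavy chain, picked for comparison after its values were seen, had ratios of 0.348, 0.348 and 0.352 in sgOgfod1 mice, against 0.407, 0.399 and 0.441 in sgScramble mice. The Fth1 groups did not overlap either, but the change of -0.25 ± 0.14 did not pass (edgeR adjusted p = 0.462).

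Both ferritin mRNAs are known to be held back by proteins that bind an iron-responsive element in the leader when iron is short. That element is shown for both chains, and the difference between their changes was not tested. The capitals mark the match to a C, any 5 bases and CAGTGN in direct succession, searched on the mRNA strand only, with 8 bases on each side.
Ftl1 leader, chromosome 7: gtgtcttgCTTCAACAGTGTttgaacgg
Fth1 leader, chromosome 19: gtttcctgCTTCAACAGTGCttgaacgg

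The same letters occur in the annotated leaders of 843 of 10670 genes tested (7.9%), so the match alone describes a sequence and not a working element. Of 18 iron genes, Ftl1 was the one called, and the median change was -0.08.

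In Atp6v0e and Lamb3 the footprint change was also called. Atp6v0e, a subunit of the proton pump of lysosomes, had 44.2, 39.9 and 45.8 footprint CPM in sgOgfod1 mice, against 74.8, 75.3 and 70.6 CPM in sgScramble mice. Its RNA overlapped, footprints were at -0.76 ± 0.11 (edgeR adjusted p = 0.00273), and efficiency was at -0.66 ± 0.12 (edgeR adjusted p = 0.00604, and 0.052 without sgScramble replicate 3). Lamb3, a laminin chain of basement membranes, had 3.68, 7.80 and 7.08 footprint CPM in sgOgfod1 mice, against 31.5, 56.4 and 42.8 CPM in sgScramble mice, at RNA levels of 6.18 to 9.09 CPM in sgOgfod1 and 8.62 to 10.2 CPM in sgScramble mice. Lamb3 changed by -2.59 ± 0.39 in efficiency (edgeR adjusted p = 0.0078) and -2.80 ± 0.32 in footprints (adjusted p = 0.00273). Mettl26 had 93.1, 87.1 and 62.3 footprint CPM in sgOgfod1 mice, against 93.9, 176 and 160 CPM in sgScramble mice. Mettl26 RNA was 9.60 to 10.2 CPM in sgOgfod1 and 7.22 to 8.06 CPM in sgScramble mice. Neither assay overlapped or passed alone, and the ratio changed by -1.19 ± 0.19 (edgeR adjusted p = 0.00295).

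Smaller falls were called in Mcrip1 (-0.72), Spint2, an inhibitor of serine proteases (-0.69), Ubqln4, a proteasome shuttle (-0.65), Adam15, a membrane metalloprotease (-0.63), Chst13, a chondroitin sulfotransferase (-0.62), and Cdk2ap2 (-0.61). Their edgeR adjusted p values were 0.0265 for Mcrip1, 0.012 for Spint2, 0.0416 for Ubqln4, 0.0138 for Adam15, 0.0363 for Chst13 and 0.021 for Cdk2ap2. Each was called in only 1 to 3 of the 6 fits without 1 mouse, with adjusted p up to 0.217 for Ubqln4. Cdk2ap2 and Adam15 were also called lower in footprints, at -0.86 and -0.62, and the other 4 were not.

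In another set the ratio was lower where RNA was higher. The beta globin Hbb-bs had 12.6, 3.86 and 9.58 RNA CPM in sgOgfod1 mice, against 0.534, 0.421 and 0.349 CPM in sgScramble mice. Its footprints were 45.5, 19.2 and 34.9 CPM in sgOgfod1 mice, against 10.5, 15.9 and 54.9 CPM in sgScramble mice. RNA of Hbb-bs separated the groups while footprints overlapped, and the ratio changed by -3.69 ± 0.55 (edgeR adjusted p = 0.00559). Hba-a1, an alpha globin, changed by -2.96 ± 0.42 in the same way (edgeR adjusted p = 0.000663). Of 17 erythroid markers counted, 8 were tested. The whole list summed to 155 to 186 RNA CPM in sgOgfod1 and 111 to 116 CPM in sgScramble mice, most of it Tfrc, the transferrin receptor of dividing cells at large. The other 16 members summed to 37.0, 22.6 and 25.9 RNA CPM in sgOgfod1 mice, against 3.28, 6.74 and 2.15 CPM in sgScramble mice, without overlap. Their footprints summed to 202, 103 and 158 CPM in sgOgfod1 mice, against 56.8, 79.4 and 251 CPM in sgScramble mice, and overlapped. Of the list, 5 members stayed under 1 RNA CPM in all 6 mice and none was at 0 in all. More cells of a type and more RNA per cell cannot be told apart in bulk samples, globin copies share reads, and the part of erythroid RNA in these values was not tested. Bcl2a1a, a survival factor of the BCL2 family with near-identical paralogs, had 10.7, 8.50 and 13.3 RNA CPM in sgOgfod1 mice, against 6.27, 4.77 and 6.20 CPM in sgScramble mice, and a ratio change of -1.12 ± 0.23 (edgeR adjusted p = 0.016) that was lost without sgOgfod1 replicate 3 or 4 or sgScramble replicate 3 or 5.

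Codon use was described across genes without a test. Among 10911 genes with a complete coding sequence, the share of each of 61 codons was set against the change of efficiency, and 29 of 30 codons ending in A or T had a positive Spearman's rho while 27 of 31 ending in G or C had a negative one. The highest were AAA and GAA at 0.356 each, and the lowest were CTG at -0.325 and GCC at -0.298. The GC content at the third base of codons (the wobble base) had a rho of -0.398 with the change of efficiency, -0.266 with that of footprints and 0.157 with that of RNA. By mouse, the rho of wobble-base GC with the deviation of the ratio was -0.31, -0.341 and 0.0582 in sgOgfod1 mice, against 0.29, 0.207 and 0.271 in sgScramble mice, and sgOgfod1 replicate 5 stood between the others. In single libraries it also ran high within 1 assay, at 0.382 in the RNA of sgOgfod1 replicate 3 and 0.366 in the footprints of sgScramble replicate 3, and the part of library preparation in this pattern was not tested. Length and wobble-base GC were also combined. With genes cut into 3 equal classes by each measure, the 1443 in both the longest and the least GC-rich class had a median of 0.22 and 50 calls higher, whereas the 1416 in both the shortest and the most GC-rich class had a median of -0.19 and 19 calls lower. The 959 longest and most GC-rich genes had a median of -0.06, with 6 calls higher and 2 lower. The 1001 shortest and least GC-rich genes had a median of 0.03, with 2 calls higher and 1 lower. Long genes thus had a positive median in the least GC-rich class and a negative one in the most GC-rich class, above that of short genes in each.

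The mitochondrial translation and energy genes showed no call in efficiency. The 11 tested proteins encoded in mitochondrial DNA had a median log2 change of 0.38, 82 mitochondrial ribosomal proteins -0.09 and 77 nuclear genes of oxidative phosphorylation -0.13. Of these 77, 16 were positive, against 50.4% of all genes tested. Of the 11 mitochondrially encoded genes, mt-Nd6 was at 0.78 and mt-Co3 at -0.39 (edgeR adjusted p = 0.173 and 0.298). None of 25 genes for selenoproteins and their synthesis was called, with 6 positive and a median of -0.10, and Gpx4, which removes lipid peroxides, was at -0.52 (edgeR adjusted p = 0.1). Nor was any gene called among 47 of the proteasome (median -0.03), 22 cytosolic aminoacyl-tRNA synthetases (0.04), 38 of mTORC1 and amino-acid sensing (-0.08), 24 of branched-chain amino acid catabolism (0.02), 63 of ribosome biogenesis (0.06), 30 of cholesterol synthesis (-0.09), 35 targets of p53 (-0.03) or 43 interferon-stimulated genes (0.05). Of the interferon-stimulated genes, 8 were called higher in footprints and 4 in RNA, against 1.36% and 0.225% of all genes tested. RNA of the 43 tested members summed to 1462, 1021 and 1448 CPM in sgOgfod1 mice, against 1106, 1102 and 1085 CPM in sgScramble mice, and its footprints to 1123, 891 and 1113 CPM in sgOgfod1 mice, against 860, 902 and 844 CPM in sgScramble mice. Replicates 3 and 5 of sgOgfod1 lay above all sgScramble mice, whereas replicate 4 lay below them in RNA and within their range in footprints.

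The same contrast under treatment, in 2 sgOgfod1 against 4 sgScramble mice, called 108 genes (0.973%), 78 higher (0.703%) and 30 lower (0.27%). Of the 83 genes higher under vehicle, 16 were also called higher under treatment, 19.3% of the vehicle and 20.5% of the treated calls, and 74 had a positive change there, against 51.5% of all genes tested. Of the 32 lower genes, 3 were called lower under treatment, Ogfod1 and Mettl26 among them, and 21 had a negative change. Giant proteins had a treated median of 0.47 with 10 called higher, among them Dync1h1, the heavy chain of the motor dynein, at 1.36 ± 0.16 (edgeR adjusted p = 0.000359), against 0.78 ± 0.15 under vehicle (adjusted p = 0.012). The longest length class had a treated median of 0.27, close to the 0.25 under vehicle, whereas wobble-base GC had a rho of 0.208 under treatment and -0.398 under vehicle. The efficiency change of the 11 mitochondrially encoded genes had a median of -0.79 under treatment, with 3 called lower, and 0.38 under vehicle, and no member passed the test of that difference.

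A test of the difference between the vehicle and the treated effect called 5 genes (0.045%). The vehicle effect was the higher one in Hmgb1 and Anp32a (0.018%) and the lower one in Scaf1, Nbeal2 and Tubb2a (0.027%). Hmgb1 changed by 1.02 ± 0.15 under vehicle and by -0.29 ± 0.15 under treatment, a difference of 1.31 ± 0.21 (edgeR adjusted p = 0.0168). Anp32a changed by 0.96 ± 0.14 under vehicle and by -0.16 ± 0.15 under treatment, a difference of 1.12 ± 0.21 (edgeR adjusted p = 0.0354). Hmgb1 ratios under treatment were 0.685 and 0.698 in sgOgfod1 mice, against 0.785, 1.10, 0.847 and 0.695 in sgScramble mice. Anp32a ratios under treatment were 28.6 and 31.3 in sgOgfod1 mice, against 27.0, 44.8, 30.9 and 33.8 in sgScramble mice. In both genes the 3 vehicle sgScramble mice lay below all 9 other mice. Dependence on single mice was strong here as well, since the count of such genes was 0 without sgOgfod1 replicate 3, 1 without sgScramble replicate 2 or 5, 3 without sgScramble replicate 3 and 123 without sgOgfod1 replicate 5.

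**Figure D4:**
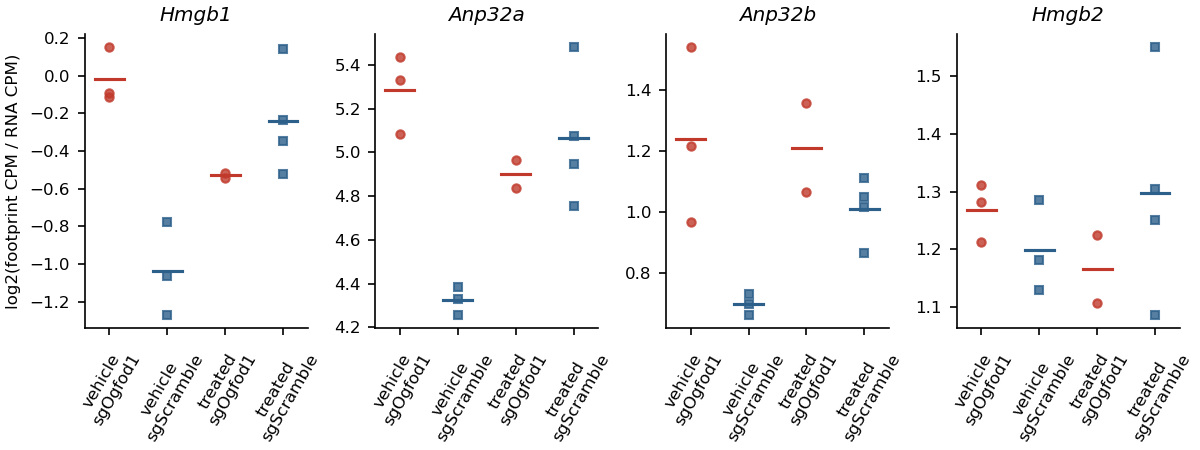
The log2 ratio of footprint CPM to RNA CPM of 4 genes with long acidic runs in each mouse, by treatment and guide, with bars at the group means. For Hmgb1, Anp32a and Anp32b the 3 vehicle sgScramble mice lie below the 3 vehicle sgOgfod1 mice, and for Hmgb2 the groups overlap; each panel has its own axis range.

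**Figure D5:**
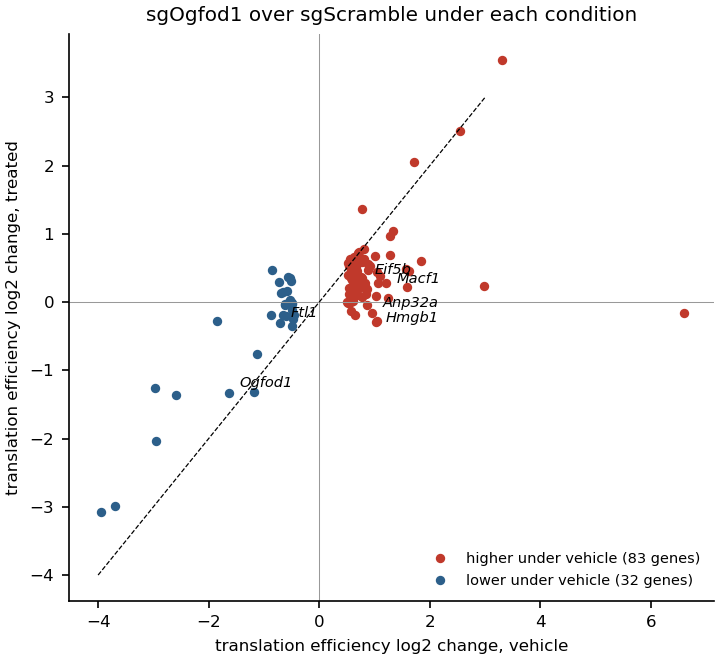
Log2 change of translation efficiency of sgOgfod1 over sgScramble under vehicle (horizontal axis) against that under treatment (vertical axis) for the 115 genes called under vehicle, with a dashed line where both are equal. Most genes higher under vehicle lie above 0 on the vertical axis too (74 of 83), while Hmgb1 and Anp32a lie just below it.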

How the data were processed

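The values used were whole-number read counts for each Ensembl gene and library, deposited by the authors without normalization. The submitters' processing notes name cutadapt, STAR, Bowtie2, SAMtools and featureCounts, and the builds GRCm38 and mm10. No source used here gives the annotation release or the strand setting, nor how reads matching several genes were counted, so paralogs, pseudogene copies and overlapping or antisense genes may share counts. Gene types, coordinates and coding sequences came from GENCODE M21 (GRCm38, longest coding transcript).

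The unaltered counts were tested with edgeR (version 4.0.16, under R 4.3.3), for protein-coding genes that passed filterByExpr in each assay. TMM scaling was computed per assay. Translation efficiency was the assay-by-group term of 1 robust quasi-likelihood fit over 24 libraries of 12 mice with the mouse as a block, which left 8 residual degrees of freedom. Footprints and RNA were also fitted alone. P-values were adjusted over all 11099 genes by the Benjamini-Hochberg method. Levels in the text are CPM on TMM-scaled library sizes, not adjusted for gene length. DESeq2 1.42.0 and limma 3.58.1 were alternatives. The fit was tested on simulated counts with known changes.

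The mouse block comes from the labels. With group means removed, footprints of each mouse correlated better with the RNA of that mouse than with the RNA of the remaining mice of its group. The r with the own RNA was 0.298 to 0.472 in sgOgfod1 but only 0.0254 to 0.0718 in sgScramble mice. Removing the mean of 3 mice lowers the other values when the own one is positive, so this is a weak check of the pairing. No 2 replicates agreed within sampling noise (chi-square per degree of freedom at least 3.18). Each footprint and RNA pair with 1 library number was taken as 1 mouse, and errors cover the spread between these mice only.

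Named genes were Ogfod1, Rps23, up to 15 higher and 15 lower calls with the largest change, at least 10 footprint CPM in the higher group and no overlap of ratios (75 and 27 qualified; predicted genes and pseudogenes skipped), and up to 4 members with the smallest p per list. Hmgb2, Set, Fth1, Snn, Dync1h1, Mpo, Mrc1, Cpa3, Tfrc and the 5 genes whose effect differed by treatment were named outside this rule, after their values were seen. The same holds for the macrophage markers Cd5l, C1qa, C1qb, Adgre1 and Slc40a1. Of all these genes, Hmgb1 and Anp32a also meet the rule. The members, the lists and the tests were chosen with earlier results of these data known, and the erythroid sum without Tfrc was added after seeing the data. All deposited columns were matched to samples. Some of the named genes are not reported here.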

Additional observations from a re-analysis of the deposited data

Results flagged for a closer look

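A test of the difference between the genotype effect under vehicle and that under treatment picked out 5 genes, all chosen by that test. Hmgb1 differed by 1.31 and Anp32a by 1.12 on the log2 scale, both higher in sgOgfod1 cells under vehicle. Nbeal2, a protein needed for platelet granules, differed by -1.14 (edgeR adjusted p = 0.0342), with -0.15 under vehicle and 0.99 under treatment. Scaf1 differed by -1.26 (edgeR adjusted p = 0.0354), with -0.55 under vehicle and 0.71 under treatment. Tubb2a, a beta tubulin, differed by -1.49 (edgeR adjusted p = 0.00914), with -0.27 under vehicle and 1.22 under treatment, and tubulin paralogs may share its reads. For Nbeal2, Scaf1 and Tubb2a the called change was thus the one under treatment, where sgOgfod1 had 2 mice. Their footprint log2 changes under treatment were near 0, at -0.08, -0.05 and 0.07. Mean RNA of these genes under treatment was 39.1, 11.2 and 7.32 CPM in sgOgfod1, against 82.4, 19.1 and 16.2 CPM in sgScramble mice.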

How the results depend on the processing

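Ogfod1 kept its direction in every alternative run, but limma on per-mouse ratios gave -1.43 (adjusted p = 0.159) and a fit of all genes of the table -1.63 (adjusted p = 0.0547). The 115 calls under vehicle became 4 with limma (1430 at an unadjusted p under 0.05), 375 with a minimum of 1 count and 23 with all genes of the table. The 108 under treatment became 0, 343 and 6 under those 3 settings, and the 5 differences between conditions became 0, 181 and 0, and also 11 with DESeq2 and 2 without robust moderation. Footprint calls were 423 with DESeq2 and 514 with a minimum of 1 count, and RNA calls were 240 with DESeq2 and 90 in the 6 vehicle mice alone. The cause of these shifts was not tested. DESeq2 called 114 genes, 85 of them shared, and gave no adjusted p for 28 of the 115, Ogfod1 among them.

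Without the block on the mouse (no replicate block) the calls were 12 under vehicle, 4 under treatment and 0 for the difference. A block on the replicate number across genotypes gave 41, 22 and 15, with 31 calls in footprints and 17 in RNA, and numbers did not pair the mice, since mice numbered 3 and 5 had correlations of -0.00612 and -0.00141 between their ratio deviations.

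Leaving out 1 mouse gave 28 to 401 efficiency calls, 75 to 149 under treatment, 0 to 123 differences, 31 to 272 footprint calls and 1 to 95 RNA calls. The high ends came without sgOgfod1 replicate 5, and the low ends without sgScramble replicate 5 for efficiency and footprints, sgOgfod1 replicate 3 for differences and sgScramble replicate 2 for RNA. The median of giant proteins stayed between 0.60 and 0.73 in the alternatives run, and that of ribosomal proteins between -0.22 and 0.08. Scaling both assays together, chosen after seeing the data like the addition of pseudogene copies, gave 104 calls. With 3 mice a group and 5.71 to 14.6 M footprint counts, a gene below the threshold is not shown to be unchanged.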
